A study of Mus musculus with 24 samples.

Results

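CD8 and CD4 T cells of untreated mice lacking Atm were compared across all genes. The comparison set 3 CD8 libraries against 3 CD4 libraries from the same mouse pools, 6 of the 24 libraries of the series. These mice were C57BL/6N of genotype Atm-/- (knockout, KO) with no transplant, and each of the 3 pools held 2 mice, 6 mice in all. The same contrast in Atmwt/wt mice (wild type, WT) with no transplant, from pools of 3, 2 and 2 mice, served as the reference for what differed with genotype. In the other 12 libraries mice of either genotype carried a transplanted B-cell lymphoma, from 1 mouse per WT pool and 2 per KO pool. All libraries counted 3′ ends of polyadenylated RNA from splenic T cells that had been enriched with a T cell isolation kit. The age of the mice, the Atm allele and the way CD4 and CD8 cells were separated are not given in the sources used here.

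Mature T cells carry either CD4, which binds MHC class II, or CD8, a pair of chains that binds MHC class I. The transcription factor Zbtb7b (ThPOK) directs thymocytes to the CD4 lineage, and Runx3 directs them to the CD8 lineage and represses Cd4. CD4 cells provide help and include regulatory T cells, which depend on Foxp3, while CD8 cells kill through granzymes and perforin. Atm is a kinase that is activated by DNA double-strand breaks and signals to p53, and it also supports the joining of DNA ends during T cell receptor rearrangement.

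Levels are given in CPM, the count of a gene scaled to a common library total, and fold changes as log2 of CD8 over CD4 with the standard error after ±. The words higher and lower stand for an adjusted p under 0.05 in edgeR's quasi-likelihood test with Benjamini-Hochberg adjustment, with the mouse pool as a block and n = 3 pools. Over all 13232 genes tested, every CD8 library of the KO controls lay above every CD4 library for 1739 genes and below for 2227. Lack of overlap was thus common, also among genes that were not called. The KO control libraries held 6541484 to 10051550 counts. The CD8 library of pool 1 stood apart. It had the fewest counts of the 6 but the most detected genes of all 24 libraries, 17707 against 15263 to 16689 in the others. In it 756 genes had counts that no other library had, 2030 counts in all, where every other library had 41 to 90 such genes. Calls and counts without this pool are given where the call was lost or the count moved by over 1.5 times. The isolated cells still held RNA of other blood cells, which is described at the end.

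Atm itself, at GRCm38 chr9:53439149-53536740, was still counted in the KO mice. Its level was 89.1, 109 and 113 CPM in the CD8 libraries of pools 1 to 3 and 79.7, 84.9 and 82.2 CPM in the CD4 libraries. The KO difference between CD8 and CD4 was 0.33 ± 0.15 (adjusted p = 0.202), although the groups did not overlap. Since the allele is not given, 3′ tags from outside the disrupted part would check nothing. Atm in the WT controls stood at 219, 203 and 192 CPM in CD8 and 191, 189 and 153 CPM in CD4 libraries.

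The co-receptor genes separated the libraries in every pool. Cd8a (chr6:71373427-71379173), one chain of CD8, was at 443, 433 and 474 CPM in the CD8 libraries and at 9.15, 6.44 and 7.41 CPM in the CD4 libraries. Its log2 fold change was 5.88 ± 0.48, adjusted p = 7.39e-05 (edgeR). Cd8b1 (chr6:71322788-71337494), the other chain, was at 619, 572 and 621 CPM against 17.2, 17.0 and 19.9 CPM (5.07 ± 0.27, adjusted p = 3.63e-07). Every CD8 library stood far above every CD4 library for both chains. Cd4 (chr6:124864692-124888221) was at 4.58, 2.99 and 1.71 CPM in CD8 and 118, 106 and 120.0 CPM in CD4 libraries (-5.25 ± 0.49, adjusted p = 0.000135). In its own pool, the Cd4 level of the CD8 library was 3.87, 2.83 and 1.43% of that in the CD4 library. The reverse shares were 2.07, 1.49 and 1.56% for Cd8a and 2.77, 2.97 and 3.21% for Cd8b1. Zbtb7b (chr3:89377644-89394776) was at 9.02, 11.01 and 9.30 CPM in CD8 and 75.0, 77.6 and 88.0 CPM in CD4 libraries (-3.03 ± 0.34, adjusted p = 0.00026), with no overlap. Runx3 was at 368, 293 and 305 CPM in CD8 and 190.2, 199 and 197 CPM in CD4 libraries (0.71 ± 0.14, adjusted p = 0.00562), a smaller step that also left no overlap. The Runx3 call was lost without pool 1 (adjusted p = 0.058). Cd3e, a chain of the T cell receptor complex that was picked after its values were seen, was at 185, 175 and 203 CPM in CD8 and 168, 169.5 and 161 CPM in CD4 libraries (0.17 ± 0.15, adjusted p = 0.557). Its groups did not overlap either, though it was not called.

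**Figure D1:**
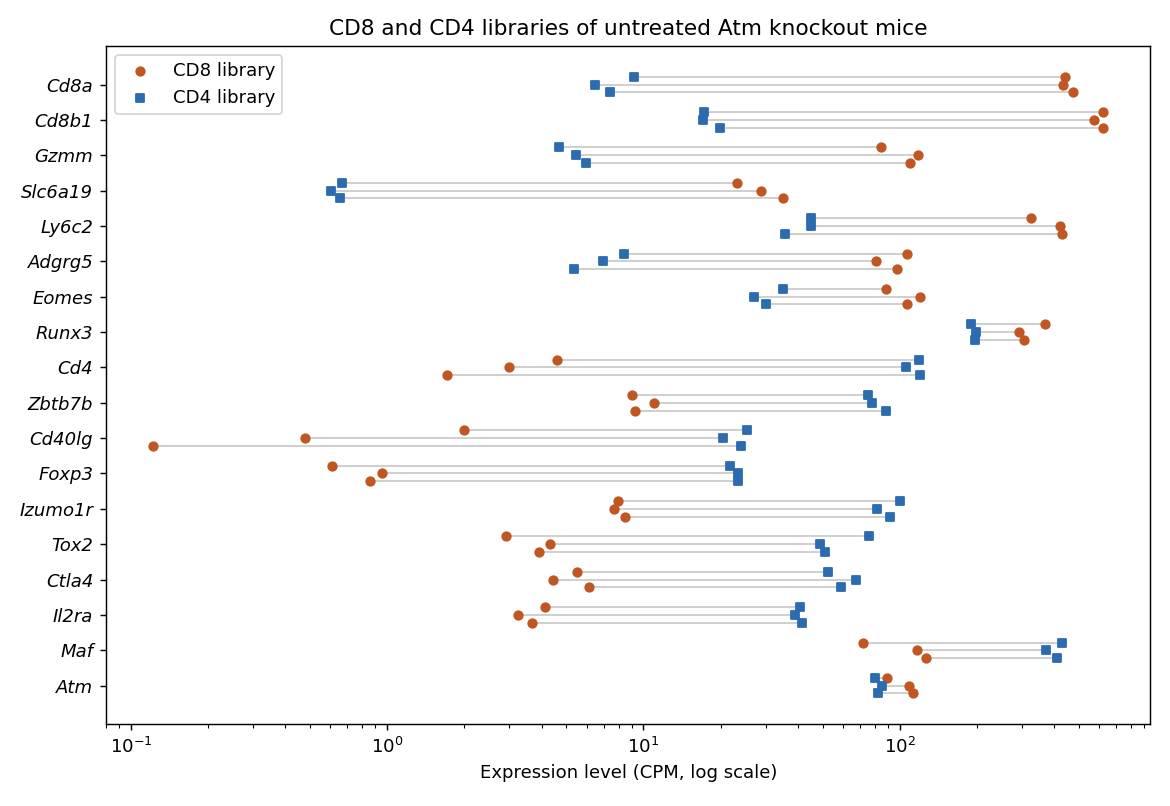
Expression level (CPM, log axis) of 18 genes in the 6 KO control libraries. Circles are CD8 and squares CD4 libraries, and each grey line joins the libraries of 1 mouse pool, pool 1 on top. The co-receptor, cytotoxic and CD4 subset genes are widely separated in all 3 pools, with Cd8a at 443, 433 and 474 CPM in CD8 libraries, whereas Atm lies close to even.

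Promoter windows of genes on either side of the contrast are shown for the core letters bound by RUNX factors, TGTGGT on either strand. They were taken from RefSeq on GRCm38.p6 and run from 250 bases before to 50 bases after an annotated start, and capitals mark each match. Each window shown is the first of its gene that holds the letters, so having a match was set by the choice. Zbtb7b and Izumo1r, which encodes a folate receptor family protein of regulatory T cells, stood lower in CD8 libraries, and Gzmm, which encodes granzyme M, stood higher. The Zbtb7b window is chr3:89387622-89387921 on the minus strand, 1 of 2 windows of that gene. The Izumo1r window is chr9:14903718-14904017 on the minus strand. The Gzmm window is chr10:79688770-79689069 on the plus strand, also 1 of 2.
Zbtb7b: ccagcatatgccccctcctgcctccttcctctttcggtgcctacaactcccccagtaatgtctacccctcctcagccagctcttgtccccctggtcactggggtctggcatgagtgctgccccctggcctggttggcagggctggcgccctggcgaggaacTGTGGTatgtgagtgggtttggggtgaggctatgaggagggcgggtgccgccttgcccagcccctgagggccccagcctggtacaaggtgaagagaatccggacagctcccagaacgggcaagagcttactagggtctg
Izumo1r: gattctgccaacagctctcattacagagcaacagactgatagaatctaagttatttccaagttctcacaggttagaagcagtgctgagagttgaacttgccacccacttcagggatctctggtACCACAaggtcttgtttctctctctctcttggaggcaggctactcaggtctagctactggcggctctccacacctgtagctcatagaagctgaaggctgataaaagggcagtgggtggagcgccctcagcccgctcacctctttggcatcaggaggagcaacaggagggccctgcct
Gzmm: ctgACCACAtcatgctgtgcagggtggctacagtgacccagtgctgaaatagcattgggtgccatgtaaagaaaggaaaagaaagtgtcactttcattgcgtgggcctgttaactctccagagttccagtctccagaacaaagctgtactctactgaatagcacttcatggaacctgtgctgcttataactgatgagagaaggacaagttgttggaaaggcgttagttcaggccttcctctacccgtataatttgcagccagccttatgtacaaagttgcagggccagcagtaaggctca
The match begins 89 bases before the start in Zbtb7b, 127 before it in Izumo1r and 247 before it in Gzmm. The letters were common, and 16.8% of all 32851 windows and 13.4% of the 12322 windows of tested genes held them. Among windows of genes higher in CD8 the share was 17.7% (84 of 475 windows, for 381 of the 520 genes). Among windows of genes lower in CD8 it was 13.8% (96 of 695 windows, for 503 of the 666 genes). The promoter of Cd8a is not among the windows shown.

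Of 13232 genes tested, 1186 (8.96%) differed between CD8 and CD4 libraries of the KO controls. Of these, 520 (3.93% of all tested) were higher and 666 (5.03%) lower in CD8 cells. A log2 fold change of at least 1 was reached by 176 of the higher genes and of at least 2 by 56. Among the lower genes 316 were at or below -1 and 102 at or below -2. The median log2 fold change over all genes tested was -0.02. Of 15 CD8 lineage genes 12 were higher and none lower (median 1.77), and of 10 CD4 lineage genes 9 were lower and none higher (median -2.21). Among 29 lineage transcription factors, 2 were higher and 6 lower (median -0.17), with Runx1 (-1.02 ± 0.13) on the lower side beside Zbtb7b. The higher count was 0, 1 and 1 without pools 1, 2 and 3. At an unadjusted p under 0.05 there were 3003 genes. The count depended on the pairing: with no replicate block, 655 genes were called (311 higher, 344 lower). It also depended on each pool, with 733 genes without pool 1, 549 without pool 2 and 434 without pool 3. The balance of the directions moved with the scaling. With library totals and no scaling factors 377 genes were higher and 963 lower, at a median of -0.11 over all genes.

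The largest rises from CD4 to CD8, after the CD8 chains, ranged from a granule protease to transporters and channels. Slc6a19, a transporter of neutral amino acids, was at 23.2, 28.8 and 35.01 CPM in CD8 and 0.667, 0.604 and 0.654 CPM in CD4 libraries (5.45 ± 0.26, adjusted p = 2.30e-08). Gzmm was at 84.3, 118 and 109.5 CPM in CD8 and 4.67, 5.44 and 5.99 CPM in CD4 libraries (4.26 ± 0.29, adjusted p = 2.61e-06). Genes were named among the largest rises and falls only where the groups did not overlap, so that separation was set by the choice. Adgrg5, an adhesion G protein-coupled receptor, stood at 107, 80.4 and 97.6 against 8.39, 6.95 and 5.34 CPM (3.78 ± 0.26). The rest of the 15 largest rises comprised Dmrta1 (4.38 ± 0.49), Dlg5 (4.24 ± 0.41), Lcn4 (4.09 ± 0.37), Bend4 (3.71 ± 0.24), Kcnc1 (3.64 ± 0.29) and Ly6c2 (3.21 ± 0.24), and further Fam71b (3.16 ± 0.41), Bace1 (3.11 ± 0.38), Dyrk4 (3.05 ± 0.33) and Nmnat2 (2.97 ± 0.35). Dlg5 is a scaffold protein of cell polarity, Kcnc1 a voltage-gated potassium channel, Bace1 a protease known for cutting the amyloid precursor protein and Nmnat2 an enzyme of NAD synthesis. All 15 were also higher in CD8 libraries of the WT controls, from 1.86 for Nmnat2 to 5.98 for Slc6a19.

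The largest falls from CD4 to CD8 were led by Cd4 and by genes of helper and regulatory cells. Cd40lg, the ligand through which helper cells activate B cells, was at 1.99, 0.479 and 0.122 CPM in CD8 and 25.3, 20.4 and 24.0 CPM in CD4 libraries (-4.89 ± 0.52, adjusted p = 9.80e-05). Penk, the precursor of enkephalins, was at 0.611, 0.479 and 0.612 CPM in CD8 and 21.8, 14.0 and 16.5 CPM in CD4 libraries (-4.89 ± 0.41, adjusted p = 3.73e-06). All CD8 libraries were below 2 CPM for both genes. Others were Ncmap (-5.08 ± 0.66), Tox2 (-3.92 ± 0.29), St8sia6 (-3.42 ± 0.35), a sialyltransferase, and Gpm6b (-3.19 ± 0.34), a membrane protein known from the nervous system. Art2a-ps, annotated as a polymorphic pseudogene, was at 0.458, 0.359 and 0 CPM in CD8 and 9.15, 5.24 and 5.56 CPM in CD4 libraries (-4.58 ± 0.80). Reads of Art2a-ps could be shared with a near-identical copy, so its level is uncertain. Of the 15 largest falls, Art2a-ps and Epb42 did not pass in the WT controls (adjusted p = 0.183 and 0.908). Their KO minus WT differences did not pass either (adjusted p = 0.63 and 0.70, edgeR), so no difference between genotypes was shown. Epb42 encodes a membrane protein of red cells, though it is not on the erythroid list, and was at 0, 1.08 and 0.612 CPM in CD8 and 1.14, 12.9 and 3.92 CPM in CD4 libraries (-3.33 ± 0.82). Its call was lost without pool 1, 2 or 3 (adjusted p = 0.0648, 0.167 and 0.0914).

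Ly6c1 and Ly6c2, neighbouring copies on chromosome 15, went in opposite directions. Ly6c2 was at 325, 420.5 and 429.6 CPM in CD8 and 45.2, 45.2 and 35.7 CPM in CD4 libraries (3.21 ± 0.24, adjusted p = 5.10e-06). Ly6c1 was at 3.51, 2.39 and 2.82 CPM in CD8 and 36.3, 38.6 and 39.3 CPM in CD4 libraries (-3.72 ± 0.29, adjusted p = 3.36e-06). Both are among the largest rises and falls, which were chosen for lack of overlap. The WT controls gave 3.01 ± 0.25 and -4.54 ± 0.30. Both encode the Ly6C surface protein and are alike in sequence, so reads may have been split between them. Ly6a (Sca-1), of the same family, was lower in CD8 as well (-1.63 ± 0.15, adjusted p = 8.75e-06).

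Genes of regulatory T cells were lower in CD8 libraries almost throughout. Of the 17 genes listed, all tested, 13 were lower and 1 was higher, with a median log2 fold change of -2.50 against -0.02 over all genes. Foxp3 was at 0.611, 0.957 and 0.857 CPM in CD8 and 21.8, 23.4 and 23.4 CPM in CD4 libraries (-4.79 ± 0.54, adjusted p = 0.000136). Il2ra, the high-affinity chain of the interleukin 2 receptor, was at 4.13, 3.23 and 3.67 CPM in CD8 and 40.8, 39.1 and 41.5 CPM in CD4 libraries (-3.46 ± 0.19, adjusted p = 6.95e-08). For both, the CD4 pools lay close together and far above the CD8 pools, but the largest falls were chosen for lack of overlap. Izumo1r had the smallest p of all genes, at 7.95, 7.66 and 8.45 CPM in CD8 and 99.9, 81.8 and 91.7 CPM in CD4 libraries (-3.50 ± 0.15, adjusted p = 6.91e-09). The inhibitory receptor gene Ctla4 was at 5.50, 4.43 and 6.12 CPM in CD8 and 52.5, 67.7 and 58.8 CPM in CD4 libraries (-3.48 ± 0.32, adjusted p = 3.98e-05). The transcription factors Ikzf4 (-2.94 ± 0.24) and Ikzf2 (-2.11 ± 0.28), the receptors Nrp1 (-2.50 ± 0.20) and Gpr83 (-3.02 ± 0.31) and Lrrc32 (-4.87 ± 0.69), which presents latent TGF-beta, were lower too. The single higher member was Itgae (1.11 ± 0.29, adjusted p = 0.0288), an integrin chain that CD8 cells also carry, and its call was lost without any 1 of the pools, as the count of higher members then became 0. The count of lower members was 12, 13 and 12 without pools 1, 2 and 3.

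Follicular and other helper cell genes followed the same side. Of 13 follicular helper genes tested of 15 listed, 10 were lower and none higher in CD8 libraries (median -0.98), and 8, 7 and 6 were lower without pools 1, 2 and 3. Maf, a transcription factor of interleukin-producing helper cells, was at 72.1, 116 and 126 CPM in CD8 and 429, 373 and 412 CPM in CD4 libraries (-1.98 ± 0.20, adjusted p = 5.05e-05). Pdcd1, which encodes the inhibitory receptor PD-1, was at 1.83, 2.87 and 1.35 CPM in CD8 and 25.1, 14.1 and 14.5 CPM in CD4 libraries (-3.10 ± 0.32, adjusted p = 2.95e-05). Both showed no overlap between the groups. Tox2 was at 2.90, 4.31 and 3.92 CPM in CD8 and 75.5, 48.9 and 51.0 CPM in CD4 libraries (-3.92 ± 0.29, adjusted p = 2.61e-06). Bcl6, the defining factor of follicular helper cells, named here after its value was seen, differed by -0.71 ± 0.20 (adjusted p = 0.0395). The Bcl6 call was lost with no replicate block (adjusted p = 0.121) and without pool 1, 2 or 3 (adjusted p = 0.158, 0.0803 and 0.228).

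Of 25 genes of Th1, Th2 and Th17 cells, 17 had enough counts for a test, and 8 were lower and 3 higher in CD8 (median -0.73). The 3 higher were the Th1 genes Tbx21 (1.24 ± 0.20), Cxcr3 (1.16 ± 0.16) and Stat4 (0.76 ± 0.17), which CD8 cells also use. Stat4 was named after its value was seen. Lower were Rora (-1.67 ± 0.14, adjusted p = 3.70e-06), a nuclear receptor, Ccr4 (-3.11 ± 0.43, adjusted p = 0.000358), a chemokine receptor of Th2 and regulatory cells, and Gata3 (-0.73 ± 0.14, adjusted p = 0.00448), the Th2 factor. The lower count was 6, 4 and 4 without pools 1, 2 and 3.

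Cytotoxic genes made up the other pole. Of 28 effector genes tested of 29 listed, 10 were higher and 1 lower in CD8 libraries (median 0.26). Nkg7, a granule membrane protein, was at 266, 269.7 and 259 CPM in CD8 and 77.5, 55.4 and 49.9 CPM in CD4 libraries (2.14 ± 0.24, adjusted p = 0.000149). Eomes, a transcription factor of memory CD8 cells, was at 88.2, 119.8 and 107 CPM in CD8 and 34.9, 27.0 and 29.96 CPM in CD4 libraries (1.77 ± 0.18, adjusted p = 2.95e-05). Neither gene overlapped between groups. Ctsw (2.15 ± 0.28), Cst7 (1.71 ± 0.19) and Tbx21 (1.24 ± 0.20) were also higher, as was the chemokine gene Ccl5 at 635, 621 and 505 CPM against 255.3, 145 and 156 CPM (1.70 ± 0.29). Prf1, which encodes perforin, stood at 135, 134 and 132 CPM in CD8 and 75.6, 57.4 and 73.8 CPM in CD4 libraries (0.96 ± 0.22, adjusted p = 0.0164). Its call was lost without pool 1, 2 or 3 (adjusted p = 0.0619, 0.117 and 0.0789). Rab27a, which docks granules for release, was the 1 lower gene (-0.56 ± 0.15, adjusted p = 0.0253), named after its value was seen, and it was not called without pool 1, 2 or 3 (adjusted p = 0.151, 0.0989 and 0.0899).

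Granzyme A and B and interferon gamma, looked up after their values were seen, did not follow granzyme M. Gzma was at 437, 351 and 258 CPM in CD8 and 324, 258 and 296 CPM in CD4 libraries (0.23 ± 0.24, adjusted p = 0.622). Gzmb was at 7.49, 19.0 and 6.73 CPM in CD8 and 8.1996, 7.95 and 8.50 CPM in CD4 libraries (0.29 ± 0.51, adjusted p = 0.783). Ifng was at 5.50, 7.18 and 5.02 CPM in CD8 and 8.1996, 6.34 and 4.47 CPM in CD4 libraries (-0.08 ± 0.45, adjusted p = 0.944). All 3 overlapped between the groups and none passed in the test paired by pool, so no difference was shown for them.

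Of 21 killer lectin receptor and adaptor genes tested of 25 listed, 5 were higher and none lower in CD8 (median 0.14), and 4, 3 and 3 were higher without pools 1, 2 and 3. Klrd1 (CD94) was at 152, 191 and 161 CPM in CD8 and 46.5, 46.1 and 51.5 CPM in CD4 libraries (1.80 ± 0.26, adjusted p = 0.00117), and its partner Klrc1 (NKG2A) at 461, 414 and 351 against 155, 167 and 156 CPM (1.35 ± 0.23, adjusted p = 0.00298). Both pairs of groups were apart. Genes of innate-like memory CD8 cells, which share members with the effector list, had 13 of 21 tested higher and 2 lower (median 1.07). Il2rb, a chain shared by the receptors for interleukins 2 and 15, was at 1258, 1299 and 1299 CPM in CD8 and 618, 604 and 505 CPM in CD4 libraries (1.16 ± 0.16, adjusted p = 0.000356). Cxcr3 was at 72.1, 67.2 and 71.7 CPM in CD8 and 35.9, 30.6 and 28.2 CPM in CD4 libraries (1.16 ± 0.16, adjusted p = 0.000268). The 2 lower members of that list were Ly6c1 and Itga4, an integrin chain (-0.54 ± 0.12, adjusted p = 0.0123). Without pools 1, 2 and 3 the higher count of this list was 12, 11 and 11, and the Itga4 call was lost without pool 1 or 3 (adjusted p = 0.0981 and 0.0707). Cd44, an activation marker viewed after its values were seen, was at 149, 139 and 124 CPM in CD8 and 152, 128 and 140.2 CPM in CD4 libraries (-0.03 ± 0.11, adjusted p = 0.917), with overlap.

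Costimulatory receptors and ligands were mostly lower in CD8 libraries, 10 of 18 tested against 1 higher (median -0.64). The higher gene was Crtam (2.71 ± 0.25, adjusted p = 1.28e-05), a receptor of activated cytotoxic cells. Icos, a costimulator of helper cells, was at 46.1, 48.7 and 39.0 CPM in CD8 and 138, 120.2 and 111 CPM in CD4 libraries (-1.46 ± 0.14, adjusted p = 1.71e-05). Tnfrsf4 (OX40) was at 5.50, 6.58 and 7.10 CPM in CD8 and 44.6, 30.6 and 33.6 CPM in CD4 libraries (-2.48 ± 0.36, adjusted p = 0.00121). Slamf1 (-1.11 ± 0.15), Tnfrsf18 (-0.77 ± 0.11) and Tnfsf11 (-5.13 ± 0.79), the ligand RANKL, were lower too. Of 15 inhibitory receptors tested of 16 listed, 5 were lower, with Cd200r1 (-2.22 ± 0.31), Cd200 (-1.95 ± 0.31) and Btla (-0.97 ± 0.16) beside Ctla4 and Pdcd1. The Btla call was lost with no replicate block (adjusted p = 0.0865). Cd160 was the single higher one (1.45 ± 0.24, adjusted p = 0.00135).

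Cytokine receptors split, with 5 of 27 higher and 7 lower (median -0.10). Beside Il2rb the higher ones included Ifngr1 (0.91 ± 0.14, adjusted p = 0.00105), the ligand-binding chain for interferon gamma. Ifngr2, the other chain of that receptor, was lower (-0.86 ± 0.12, adjusted p = 0.000269). Ifngr1 stood at 456, 479.9 and 454 CPM in CD8 and 283, 231 and 228.1 CPM in CD4 libraries, and Ifngr2 at 18.0, 18.5 and 14.9 and 30.03, 31.4 and 31.8 CPM. The 2 chains of that receptor thus went opposite ways in all 3 pools. Tgfbr3, a co-receptor for TGF-beta, was lower as well (-1.63 ± 0.19, adjusted p = 6.37e-05). The lower count of this list was 6, 5 and 3 and the higher count 5, 3 and 3 without pools 1, 2 and 3.

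Of 36 genes of the T cell receptor complex and its proximal signalling, 2 were higher and 1 lower, near the shares over all genes, with a median of -0.0073. The higher count was 1, 1 and 0 without pools 1, 2 and 3. The lower one was Cd5, an inhibitory surface protein, at 137, 142 and 163 CPM in CD8 and 312, 275 and 287 CPM in CD4 libraries (-0.98 ± 0.14, adjusted p = 0.00052). Ptpn22, a phosphatase that restrains receptor signalling, was higher (0.78 ± 0.15, adjusted p = 0.00408), but not without pool 3 (adjusted p = 0.0625). Of 23 immediate early genes, 3 were lower and 1 higher (median -0.27). The lower ones were Egr1, Egr2 and Egr3, which are induced by receptor signals. Egr1 was at 57.6, 69.2 and 73.8 CPM in CD8 and 149, 176 and 147 CPM in CD4 libraries (-1.24 ± 0.14, adjusted p = 6.37e-05), without overlap. Egr2 (-1.32 ± 0.27, adjusted p = 0.00681) lost its call without pool 1 (adjusted p = 0.0552). Egr3 (-0.87 ± 0.20, adjusted p = 0.0131) lost it without pool 1 or 2 (adjusted p = 0.099 and 0.102). In the WT controls Egr1 differed by -0.20 ± 0.14 (adjusted p = 0.574). The KO minus WT difference did not pass for Egr1, so no difference between genotypes was shown. The higher one was Ier3 (1.40 ± 0.22, adjusted p = 0.00103), a stress-induced survival gene.

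Homing receptors also split. Of 20 chemokine and sphingosine receptor genes tested of 21 listed, 5 were higher and 2 lower in CD8 (median -0.08). Ccr9, the receptor that guides cells to the small intestine, was at 70.4, 89.9 and 94.1 CPM in CD8 and 17.4, 17.9 and 17.3 CPM in CD4 libraries (2.26 ± 0.14, adjusted p = 2.84e-07). P2rx7, an ATP-gated channel that stands on this list, was at 20.02, 27.8 and 24.7 CPM in CD8 and 131, 156 and 116 CPM in CD4 libraries (-2.47 ± 0.15, adjusted p = 1.69e-07). Each gene left a wide gap between the groups. Cxcr6 (1.76 ± 0.24, adjusted p = 0.000815) was higher in CD8 like Cxcr3. Among 24 glycosyltransferases of the T cell surface, 2 were higher and 6 lower (median -0.26). St3gal6 was at 63.1, 73.7 and 71.0 CPM in CD8 and 26.1, 29.5 and 25.1 CPM in CD4 libraries (1.36 ± 0.14, adjusted p = 3.16e-05), and St8sia6 at 3.21, 3.47 and 3.06 against 30.3, 36.1 and 37.8 CPM (-3.42 ± 0.35, adjusted p = 6.00e-05). Without pools 1, 2 and 3 the lower count of this list was 4, 2 and 2 and the higher count 1 each. Of 22 integrin and adhesion genes tested of 23 listed, 4 were higher and 3 lower (median -0.05), and without pools 1, 2 and 3 the higher count was 2, 0 and 0 and the lower count 1, 2 and 0. Selplg, the ligand of P-selectin, was among the higher (0.61 ± 0.12, adjusted p = 0.00584), with adjusted p = 0.0583 and 0.0692 without pools 2 and 3.

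Of 21 genes of the naive state, 3 were higher and 1 lower in CD8 libraries (median -0.11), which is 19% against 8.96% of all genes tested. The lower one was Igfbp4, which binds insulin-like growth factors, at 86.5, 89.6 and 109 CPM in CD8 and 329.9, 279.98 and 342 CPM in CD4 libraries (-1.74 ± 0.14, adjusted p = 3.30e-06). The higher ones included Il7r (0.64 ± 0.18) and Klf2 (0.41 ± 0.12), and neither was called with no replicate block (adjusted p = 0.212 and 0.318) or without pool 2 or 3, and Klf2 was not called without pool 1 either (adjusted p = 0.0749). Tcf7 and Ccr7, named after their values were seen, were at 0.12 ± 0.17 and -0.08 ± 0.18 (adjusted p = 0.732 and 0.849). Of 23 memory and activation genes, 5 were higher and 4 lower (median 0.00585), and without pools 1, 2 and 3 the higher count was 4, 3 and 3. S100a4, a calcium-binding protein of memory cells, was at 306, 339 and 252 CPM in CD8 and 659, 759.6 and 656 CPM in CD4 libraries (-1.22 ± 0.13, adjusted p = 4.23e-05). Its call was lost with no replicate block (adjusted p = 0.105).

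**Figure D2:**
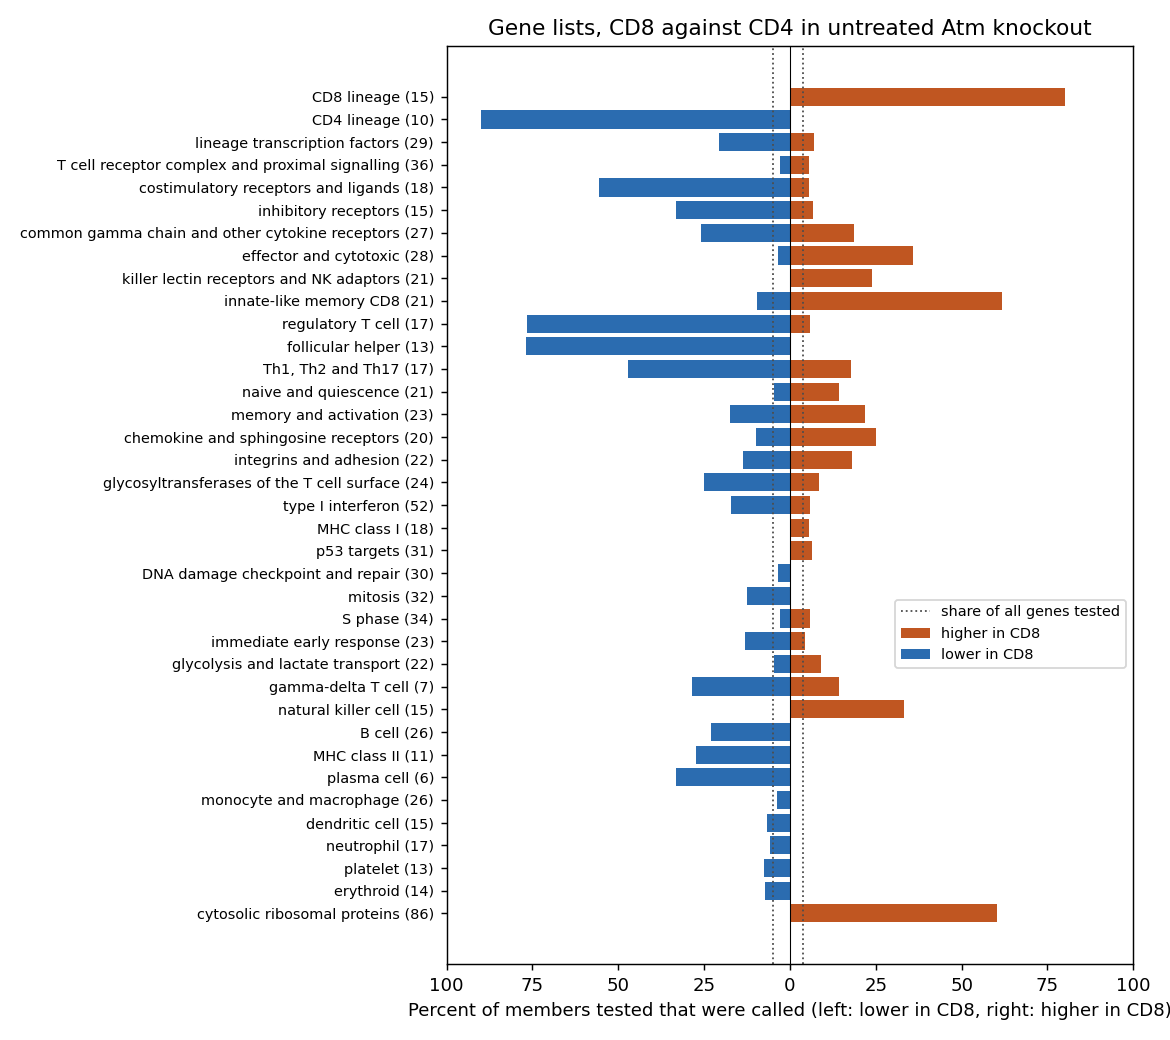
Share of the tested members of each gene list that were higher (right) or lower (left) in CD8 than in CD4 libraries of the KO controls, in percent. The number tested is in brackets, lists share members, and dotted lines mark the 3.93% and 5.03% of all genes tested. CD4 lineage, regulatory and follicular helper genes extend to the left, and CD8 lineage, innate-like memory and ribosomal protein genes to the right.

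Pathways linked to Atm had no more calls than genes at large, 6.45% of p53 targets and 3.33% of repair genes against 8.96% of all genes tested. Of 31 p53 target genes tested of 35 listed, 2 were higher and none lower in CD8 (median 0.0048 against -0.02 over all genes). Bbc3 (PUMA), which promotes apoptosis, was at 144, 110.3 and 117 CPM in CD8 and 52.2, 42.8 and 45.9 CPM in CD4 libraries (1.39 ± 0.12, adjusted p = 5.10e-06), with no overlap. In the WT controls Bbc3 was higher by 0.64 ± 0.12 (adjusted p = 0.00524), and its KO minus WT difference did not pass. Aen, a nuclease, was higher by 0.45 ± 0.10 (adjusted p = 0.0103), but not without pool 1 or 3 (adjusted p = 0.0801 and 0.0696). The classical targets Cdkn1a (-0.62 ± 0.33, adjusted p = 0.287) and Mdm2 (0.02 ± 0.13, adjusted p = 0.947), named after their values were seen, did not pass. Among 30 genes of DNA damage checkpoints and repair, 1 was lower and none higher (median 0.024). It was Lig4, the ligase of end joining, at 20.6, 23.3 and 18.5 CPM in CD8 and 27.9, 38.5 and 33.5 CPM in CD4 libraries (-0.67 ± 0.19, adjusted p = 0.0414). Its call was lost with no replicate block (adjusted p = 0.147) and without pool 1, 2 or 3 (adjusted p = 0.0718, 0.163 and 0.235).

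Of 52 type I interferon genes, 3 were higher and 9 lower in CD8 libraries (median -0.13). Slfn5 was at 152, 128 and 123 CPM in CD8 and 261, 253 and 265 CPM in CD4 libraries (-0.96 ± 0.10, adjusted p = 3.26e-05), and Ifi27l2a averaged 87.1 ± 7.80 against 164 ± 9.01 CPM (SD, n = 3) (-0.91 ± 0.11, adjusted p = 0.000119). With no replicate block the Slfn5 call was lost (adjusted p = 0.0757), and 3 of the list were lower. Without pools 1, 2 and 3 the lower count was 5, 5 and 4 and the higher count 1, 1 and 0. Isg20 was at 4.28, 6.94 and 4.65 CPM in CD8 and 14.0, 34.5 and 23.6 CPM in CD4 libraries (-2.15 ± 0.30, adjusted p = 0.000503). Rsad2, named after its values were seen, was at 47.5, 85.9 and 52.5 CPM in CD8 and 84.1, 590.4 and 257 CPM in CD4 libraries (-1.996 ± 0.47, adjusted p = 0.0316), so that the groups overlapped. Isg20 and Rsad2 were highest in the CD4 library of pool 2 and lowest, among CD4 libraries, in that of pool 1. Red cell RNA followed that order too, and its part in these values was not tested. The Rsad2 call was lost without pool 2 or 3 (adjusted p = 0.162 and 0.178).

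Cell division genes were uneven between pools. Of 32 mitosis genes, 4 were lower and none higher in CD8 (median -0.55), and none was lower without pool 2, without pool 3 or with no replicate block. The list summed to 428.7, 1038 and 506.2 CPM in the CD4 libraries and to 388, 586.6 and 330.6 CPM in the CD8 libraries. Pool 2 was the highest in both classes. Nusap1, a spindle protein, was at 14.97, 22.1 and 11.9 CPM in CD8 and 19.2, 54.3 and 24.6 CPM in CD4 libraries (-0.92 ± 0.22, adjusted p = 0.0203), with overlap. Of 34 S phase genes, 2 were higher and 1 lower (median -0.02), which is 8.82%, near the 8.96% of all genes tested. Of 22 glycolysis genes, 2 were higher and 1 lower (13.6%). In both lists the higher count was 1 without pool 1 and 0 without pool 2 or 3, and no S phase gene was lower when any 1 pool was left out. Ldhb, a lactate dehydrogenase chain, was the lower one, at 2.44, 2.51 and 1.47 CPM in CD8 and 10.5, 9.36 and 9.37 CPM in CD4 libraries (-2.19 ± 0.24, adjusted p = 4.40e-05). Of 18 MHC class I genes, H2-Q6 alone (5.56%) was called (0.70 ± 0.12, adjusted p = 0.00158). It belongs to a family of near-identical copies among which reads may be split. Without pool 1 the higher count of that list was 2.

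Cytosolic ribosomal protein genes were the largest list that moved together. Of 86 tested, 52 were higher and none lower in CD8 libraries, and 85 had a log2 fold change above 0 (median 0.45 against -0.02 over all genes). Rplp0, a protein of the ribosomal stalk, was at 2382, 2239.5 and 2440.4 CPM in CD8 and 1645, 1425 and 1620.3 CPM in CD4 libraries (0.59 ± 0.09, adjusted p = 0.00111). Rpl38 was at 741, 623 and 685 CPM in CD8 and 481, 402 and 431 CPM in CD4 libraries (0.64 ± 0.12, adjusted p = 0.00295), and Rpl18 at 1837, 1762 and 1928 against 1296, 1193 and 1295 CPM (0.55 ± 0.10, adjusted p = 0.00293). The 3 CD8 libraries were above the 3 CD4 libraries for each of these. By pool the median difference of the 86 genes was 0.29, 0.59 and 0.52 on the log2(CPM + 0.5) scale, with 75, 86 and 85 genes above 0. The call count rested on pools 2 and 3: it was 51 without pool 1, 7 without pool 2 and 8 without pool 3. With no replicate block 26 were higher. In library totals with no scaling factors the median was 0.36.

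In the WT controls none of the 86 passed, with a median of 0.09. In mice with a lymphoma 11 were higher in KO (median 0.348) and none in WT (median 0.215), and none was lower. The WT control pools had medians of -0.01, 0.02 and 0.29, with 42, 47 and 84 genes above 0, so that WT pool 3 matched KO pool 1. The difference between KO and WT controls passed for none of the 86 (median 0.36). Hemoglobin RNA differed between the same libraries. In KO pools 1, 2 and 3 it took 0.503, 3.44 and 1.89% of the counts of the CD4 library and 0.122, 0.331 and 0.2% in the CD8 library. In WT pool 3 it was 0.931% in CD4 and 0.395% in CD8, and in WT pools 1 and 2 it was 0.0386 to 0.0785%. KO pools 2 and 3 thus had both the most hemoglobin RNA and the largest ribosomal protein differences, and its part in them was not tested. The mouse identifiers of KO pools 2 and 3 and WT pool 3 begin with B, those of the other control pools with S. What these letters stand for is not given, and their part was not tested. Removing immunoglobulin and other cell genes from the table before scaling left 55 of the 86 higher, but other RNA of those cells stayed in the counts. Many ribosomal protein genes have near-identical pseudogenes, so their absolute levels are uncertain.

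**Figure D3:**
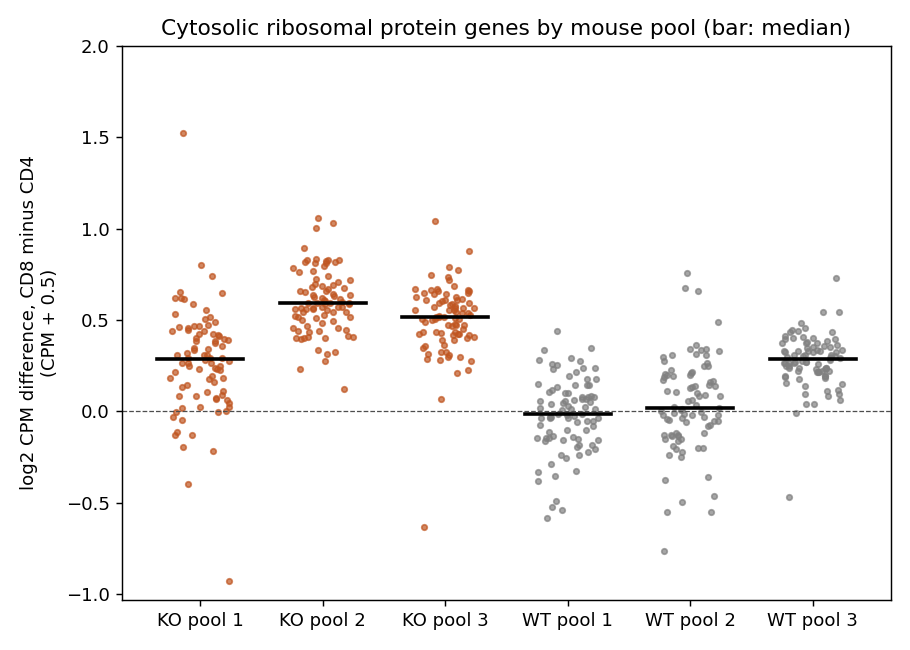
Log2 difference between the CD8 and the CD4 library of each mouse pool, on CPM + 0.5, for 86 ribosomal protein genes (points, spread sideways at random) with the median as a bar. KO pools are at medians of 0.29, 0.59 and 0.52 and WT pools at -0.01, 0.02 and 0.29.

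Rpl18 and Rpl38 were among the ribosomal protein genes that moved together, and their promoter windows (RefSeq, GRCm38.p6) are given with the pyrimidine run CTTTCC, on either strand, in capitals. Messenger RNAs of ribosomal proteins are known to begin with such a run. The Rpl18 window is chr7:45717821-45718120 and the Rpl38 window is chr11:114668330-114668629, both on the plus strand.
Rpl18: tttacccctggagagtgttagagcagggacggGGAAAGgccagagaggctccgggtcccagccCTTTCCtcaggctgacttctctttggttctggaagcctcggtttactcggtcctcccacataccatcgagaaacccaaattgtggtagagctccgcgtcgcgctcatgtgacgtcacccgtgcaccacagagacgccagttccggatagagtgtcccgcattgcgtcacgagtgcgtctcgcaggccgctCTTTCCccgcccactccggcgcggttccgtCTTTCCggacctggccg
Rpl38: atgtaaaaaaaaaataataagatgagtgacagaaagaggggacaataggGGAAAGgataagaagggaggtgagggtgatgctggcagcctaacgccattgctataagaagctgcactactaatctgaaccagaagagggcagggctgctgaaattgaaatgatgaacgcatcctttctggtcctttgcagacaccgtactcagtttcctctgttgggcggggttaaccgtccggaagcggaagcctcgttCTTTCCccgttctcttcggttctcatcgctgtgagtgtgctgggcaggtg
Rpl18 held 4 matches and Rpl38 held 2, of which the second lies at the annotated start itself. The letters occurred in 36 of 73 windows (49.3%) of the 62 ribosomal protein genes that could be matched by symbol, in 26.6% of all windows and in 26.4% of those of tested genes. Among the ribosomal protein genes that were higher in CD8 the share was 46.5% (20 of 43 windows).

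RNA of other blood cells differed between CD8 and CD4 libraries. In such bulk samples, fewer cells of a type and less RNA per cell cannot be told apart. Of 26 B cell genes, 6 were lower and none higher in CD8 (median -1.41), and 1 to 3 were lower when any 1 pool was left out and none with no replicate block. DESeq2 called 13 of them lower and the fit of the 6 KO control libraries alone 25. The list summed to 1664, 1718 and 2021 CPM in the CD4 libraries and to 772.3, 723.1 and 940.2 CPM in the CD8 libraries. MHC class II genes summed to 665.8, 686.2 and 841 CPM in CD4 and 328.7, 329.2 and 399.2 CPM in CD8 libraries, with 3 of 11 lower, 1 when any 1 pool was left out, none with no replicate block and 8 in the fit of those 6 libraries. Every CD4 library was above every CD8 library for both sums. Pax5, the defining factor of B cells, was at 15.4, 14.4 and 19.8 CPM in CD8 and 33.7, 58.2 and 65.7 CPM in CD4 libraries (-1.63 ± 0.42), and Ciita, which controls MHC class II, at 5.96, 8.85 and 12.6 against 27.1, 33.3 and 40.4 CPM (-1.91 ± 0.25). The Pax5 call was lost without pool 1, 2 or 3 (adjusted p = 0.0841, 0.182 and 0.192) and the Ciita call with no replicate block (adjusted p = 0.246). In the WT controls none of the B cell genes was lower, and their sums were 312 to 1292 CPM in CD4 and 347.6 to 1337 CPM in CD8 libraries. The KO minus WT difference passed for none of the B cell genes.

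Erythroid genes were the most uneven. They summed to 4928, 34130 and 18890 CPM in the CD4 libraries and to 1290, 3567 and 2203 CPM in the CD8 libraries, where every CD4 library was above every CD8 library. Of 14 tested only Gata1 passed (-1.54 ± 0.41, adjusted p = 0.0288; list median -2.04), and not without pool 1 or 3 (adjusted p = 0.152 and 0.207). DESeq2 called 9 erythroid genes lower, limma voom 11 and the fit of the 6 libraries 6. The adult beta globin gene Hbb-bs differed by -2.80 ± 0.80 (adjusted p = 0.0674). Of 26 monocyte and macrophage genes 1 was lower, none without pool 3, and they summed to 3375, 2827 and 3716 CPM in CD4 and 2326, 2522 and 2631 CPM in CD8 libraries. Natural killer cell genes went the other way, with 5 of 15 higher and none lower, 3 when any 1 pool was left out, and all 5 are also expressed by T cells (Cd7, Eomes, Il2rb, Prf1 and Txk). Of 7 gamma-delta T cell genes tested of 12 listed, 2 were lower and 1, Cd163l1, was higher, at 29.5, 28.1 and 26.2 CPM in CD8 and 0.572, 1.11 and 1.85 CPM in CD4 libraries (4.60 ± 0.38, adjusted p = 3.30e-06). Of the plasma cell, dendritic cell, neutrophil and platelet genes, 2 of 6, 1 of 15, 1 of 17 and 1 of 13 were lower and none higher. These are 33.3, 6.67, 5.88 and 7.69% of the genes tested, and 3.85% for monocyte and macrophage genes, against 5.03% lower over all genes. When any 1 pool was left out, 1 plasma cell gene and no neutrophil gene was lower, and without pool 2 or 3 no dendritic, platelet or gamma-delta T cell gene was. Of 20 genes shared by all T cells, 1 was higher and 2 were lower, and none was higher when any 1 pool was left out. The part of other cells in the differences above was not tested. With these genes and the immunoglobulin genes taken out, 1196 genes were called, against 1186 with them. That step leaves all other RNA of those cells in the counts, so it cannot show their part.

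**Figure D4:**
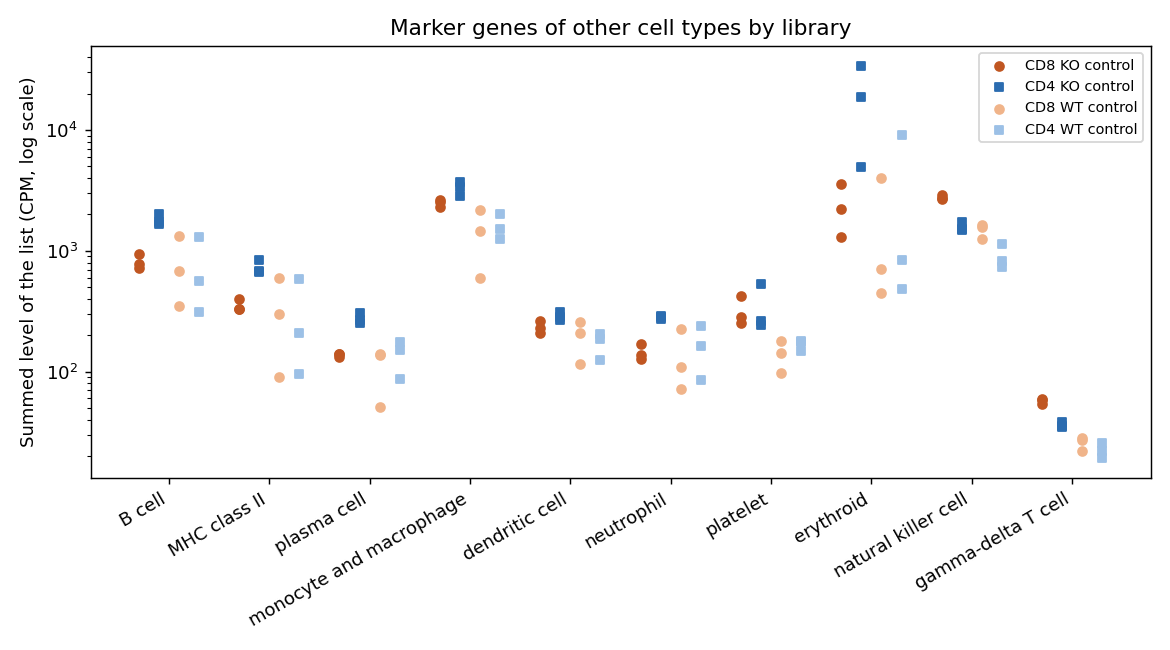
Summed level (CPM, log axis) of marker genes of 10 other cell types in the 12 libraries of mice without a transplant, with circles for CD8 and squares for CD4, dark for KO and light for WT. In KO the CD4 libraries are above the CD8 libraries for B cell, MHC class II, plasma cell, monocyte and macrophage, dendritic cell, neutrophil and erythroid genes, and below them for natural killer and gamma-delta T cell genes. Platelet genes overlap.

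The contrast was then set against the same contrast in WT controls, where 637 of 13232 genes (4.81%) differed, 342 (2.58%) higher and the rest (2.23%) lower. Of the 520 genes higher in KO, 210 (40.4%) were also higher in WT, which is 61.4% of the WT genes. Of the 666 lower in KO, 222 (33.3%) were lower in WT, which is 75.3% of the WT genes. WT and KO values had the same sign for 488 and 597 of the KO genes. The share of same signs over all genes was not counted. Over all genes tested, the KO and WT log2 fold changes correlated at 0.394 (Pearson). In all 4 conditions, lymphoma included, 112 of the 13232 genes tested were higher and 119 lower in CD8. A larger number of calls in KO does not show a larger difference. The difference between KO and WT, tested gene by gene, passed for 8 genes (0.0605%), 1 (0.00756%) with a larger and 7 (0.0529%) with a smaller log2 fold change in KO, at a median of -0.02 over all genes. There were 941 genes at an unadjusted p under 0.05, and DESeq2 called 21. Without WT pool 1 no gene passed, and without any other pool 3 to 5 did. The KO and WT pools differed in RNA of the Y chromosome. Uty, Eif2s3y and Ddx3y together came to 2.57, 1.21 and 56.4 CPM in the CD4 KO libraries and to 68.5, 200 and 121 CPM in the CD4 WT libraries. Its part in the difference was not tested.

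Itgae had the widest gap between genotypes. This gene encodes CD103, the integrin chain that binds E-cadherin on epithelial cells. In KO it was at 9.17, 14.8 and 13.3 CPM in CD8 and 5.34, 6.64 and 5.12 CPM in CD4 libraries, and in WT at 40.2, 29.1 and 31.7 CPM in CD8 and 0.884, 0.733 and 1.49 CPM in CD4 libraries. The CD8 libraries of KO stood below those of WT and the CD4 libraries above, without overlap on either side. The contrast was 1.11 ± 0.29 in KO and 5.04 ± 0.36 in WT, a difference of -3.93 ± 0.48 (adjusted p = 0.00387, edgeR). Without WT pool 1 the adjusted p was 0.0641 for Itgae. The 2 co-receptor classes were closer to each other in KO.

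For Izumo1r and Rora the contrast was wider in KO. Izumo1r, given above for KO, was at 17.1, 16.4 and 19.3 CPM in CD8 and 58.0, 76.0 and 63.7 CPM in CD4 libraries of WT (difference -1.60 ± 0.20, adjusted p = 0.00387). Rora was at 18.0, 18.7 and 15.1 CPM in CD8 and 52.2, 68.1 and 46.0 CPM in CD4 libraries of KO and at 21.8, 23.4 and 27.6 and 31.9, 29.8 and 39.9 CPM in WT (difference -1.20 ± 0.19, adjusted p = 0.0449). For both genes the KO libraries stood below WT in CD8 and above WT in CD4, without overlap. Ehd1, which recycles membrane proteins from endosomes, had nearly the same CD8 level in both genotypes, 89.2 ± 0.758 CPM in KO and 89.5 ± 6.01 CPM in WT (mean ± SD, n = 3). Its CD4 level was 58.8 ± 6.19 in KO and 28.9 ± 1.93 in WT (difference -1.03 ± 0.14, adjusted p = 0.0125). Leaving out 1 of the 6 control pools in turn, the Rora difference never passed (adjusted p = 0.102 to 0.324) and the Ehd1 difference passed in 1 case (0.0376 to 0.166). The Izumo1r difference was lost only without WT pool 1 (adjusted p = 0.0617).

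**Figure D5:**
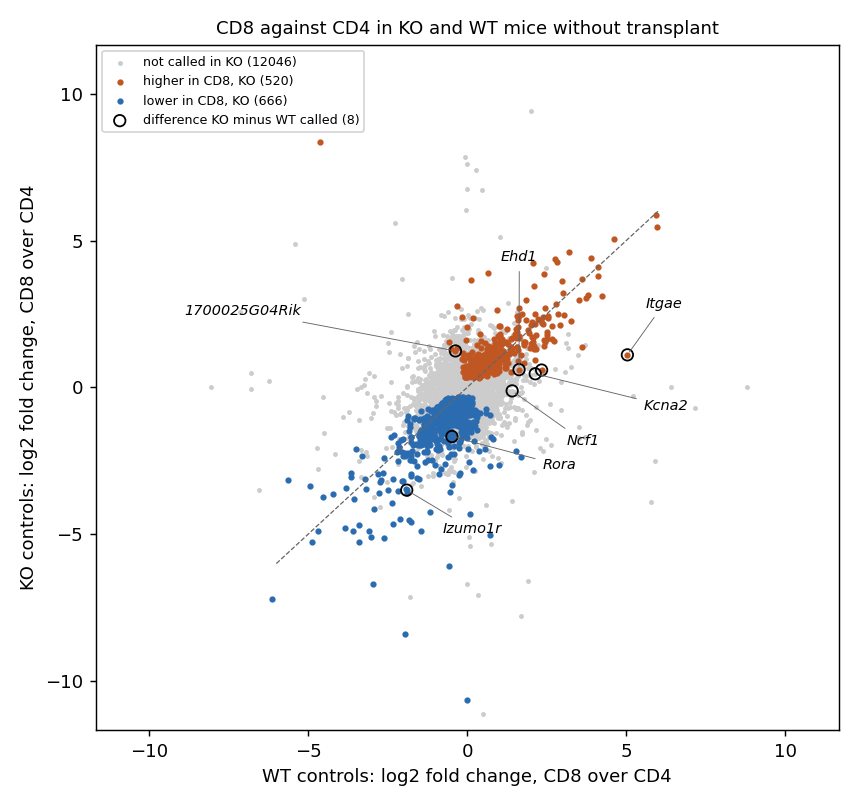
Log2 fold change of CD8 over CD4 for each of 13232 genes in KO controls (vertical) against WT controls (horizontal), with equal values on the dashed line. Genes higher in KO are orange, lower ones blue, and rings mark the 8 genes whose fold change differed between genotypes, with Itgae at 1.11 in KO and 5.04 in WT.

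Mice that carried a lymphoma were other animals, whose CD8 minus CD4 terms were no part of the contrast that chose these genes. Their libraries shared the fit, though, so they entered the gene filter, the scaling and the spread behind that choice. Itgae was at 0.38 ± 0.31 in KO and 3.33 ± 0.33 in WT with lymphoma. Kcna2, a potassium channel, was at 0.43 ± 0.17 and 1.70 ± 0.18. Izumo1r was at -3.20 ± 0.15 and -2.66 ± 0.14, Rora at -1.73 ± 0.15 and -0.91 ± 0.14, and Ehd1 at 0.56 ± 0.10 and 1.01 ± 0.10. The remaining pair was 1700025G04Rik, at 1.08 ± 0.19 and 0.07 ± 0.19, and Ncf1, a subunit of the phagocyte oxidase, at 0.79 ± 0.17 and 0.77 ± 0.17. For Ncf1 the KO and WT values were thus near each other, and for the other 6 named they lay in the same order as in the controls. The difference between genotypes was not tested within the lymphoma groups. Over all genes, 542 (4.1%) differed between CD8 and CD4 in KO with lymphoma (269 of them lower) and 457 (3.45%) in WT with lymphoma (238 of them lower).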

How the data were processed

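RNA of splenic T cells was counted from 3′ tags (Lexogen QuantSeq FWD, per the labels' protocols) in 24 libraries of 12 mouse pools. The authors deposited estimated counts per gene, named by mouse symbols. Salmon 0.11.3 and the human build GRCh38 are named in the submitters' processing notes, which give no role, and no position comes from that build. All cells but 2 held whole numbers, and the 2 genes with a letter in a cell, 0610010K14Rik and 0610030E20Rik, were dropped, which left 34111 of 34113. Among them, 11473 genes were at 0 throughout.

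All 24 libraries were fitted with edgeR 4.0.16 in R 4.3.3 (trimmed mean of M values, filterByExpr with minimum count 10 and total 15, robust quasi-likelihood test). The fit held each mouse pool as a block and a CD8 minus CD4 term for each of the 4 conditions, with 8 residual degrees of freedom, and 13232 genes were tested. CD4 and CD8 libraries of a replicate number come from the same mice by their mouse identifiers. Deviations from group means correlated at 0.0727, 0.134 and 0.309 within the KO control pools. Standard errors were taken from the F statistic. No 2 replicates were alike within sampling noise. Libraries held 6470482 to 10196062 counts. The p-values measure how the CD8 minus CD4 difference varied between pools of a condition, estimated over all 4 conditions together.

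The members and the 38 gene lists were chosen with earlier results of these data known. Genes named were Atm, Cd4, Zbtb7b, Cd8a and Cd8b1, then the 15 largest rises and falls that passed without overlap at 5 CPM or more in the higher group, leaving out segments, predicted genes and genes on the lists of other cells. Up to 6 members per list with the smallest p, and every gene of the KO minus WT difference, could be named as well. Some are not reported here, and others are marked in the text. On simulated data of the KO comparison with 13128 genes, 66 of 100 genes changed by 2-fold and 88 of 100 changed by 4-fold were recovered, with 13 false calls. Promoters were matched by symbol, and gene positions are from GENCODE M21 on GRCm38.

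Alternatives were DESeq2 size factors, upper-quartile factors, no filter, limma 3.58.1 (voom, sample weights), a filter of at least 30 counts in 3 or more libraries, DESeq2 1.42.0 itself, no replicate block, fits of 6 or 12 libraries, removal of immunoglobulin and other cells' genes, and each control pool left out. Factors computed without ribosomal protein genes, and library totals, were added after the data were seen.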

Additional observations from a re-analysis of the deposited data

Results flagged for a closer look

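For 8 genes the CD8 against CD4 contrast differed between KO and WT controls by a test of the difference itself (edgeR, adjusted p under 0.05, n = 3 pools of each genotype). For 7 of them the log2 differences, KO minus WT, were -3.93 for Itgae, -1.60 for Izumo1r, -1.68 for Kcna2, -1.53 for Ncf1, -1.20 for Rora, -1.03 for Ehd1 and 1.61 for 1700025G04Rik. Leaving out 1 of the 6 control pools at a time gave adjusted p = 0.0167 to 0.0641 for Itgae and 0.0123 to 0.0617 for Izumo1r, and both were lost only without WT pool 1.

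Kcna2, a voltage-gated potassium channel, was at 34.99, 48.9 and 52.1 CPM in CD8 and 34.3, 26.8 and 37.2 CPM in CD4 libraries of KO and at 103, 96.4 and 80.1 and 16.1, 27.3 and 20.8 CPM in WT. The KO groups overlapped and the WT groups did not. Ncf1 was at 28.4, 34.5 and 37.2 CPM in CD8 and 34.2, 35.7 and 38.2 CPM in CD4 libraries of KO and at 26.5, 35.7 and 46.4 and 7.74, 12.95 and 21.98 CPM in WT, where each CD8 library exceeded the CD4 libraries. 1700025G04Rik was at 51.5, 65.0 and 61.8 CPM in CD8 and 26.9, 23.9 and 24.3 CPM in CD4 libraries of KO and at 21.9, 24.1 and 20.9 and 28.3, 29.2 and 28.9 CPM in WT, so that the KO CD8 libraries stood apart from the other 3 groups. The highest adjusted p without 1 pool was 0.166 for Ehd1 and for Kcna2, 0.324 for Rora and for 1700025G04Rik and 0.283 for Ncf1. With no replicate block, Kcna2, Ncf1, Rora and 1700025G04Rik did not pass (adjusted p = 0.0696, 1, 1 and 0.0669).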

How the results depend on the processing

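No named gene that passed in the reported fit changed direction under any setting run. The 1186 genes called in KO became 2480 with limma voom (1134 higher, 1346 lower), 655 with no replicate block (311 higher, 344 lower) and 434 to 733 without 1 KO pool (190 to 366 higher, 244 to 367 lower). Without 1 WT pool it was up to 1154, without WT pool 1 (526 higher, 628 lower). The other settings kept that count within 1.5 times, DESeq2 at 1191, the fit of only the 6 libraries at 1453 and that of 12 libraries at 1566. DESeq2 size factors gave 588 higher and 600 lower, upper-quartile factors 592 and 591. The WT count ran from 280 to 653 without 1 control pool (149 to 345 higher, 131 to 308 lower), and voom gave 444 lower in WT. The difference between genotypes, 8 genes in the reported fit (1 higher, 7 lower), was 17 with no filter (3 and 14), 21 with DESeq2 (2 and 19), 22 with voom (5 and 17), 55 in only the 12 control libraries (3 and 52), 5 with no replicate block (0 higher) and 5 with library totals (0 higher). Leaving out 1 KO pool gave 3 to 5 genes, all lower, and leaving out 1 WT pool 0 to 4, all lower. The cause was not tested, except that fits without a pool hold fewer samples.

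Of 149 named genes that passed, 97 passed with no replicate block, 116, 105 and 100 without KO pools 1, 2 and 3, 145 with DESeq2 and 149 with voom. The 6 libraries compared held 6541484 to 10051550 estimated counts, and what a greater depth would add was not tested.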

Other observations

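Among ribosomal protein pseudogenes, 2 were looked at after their values were seen. Rps16-ps2 was at 0, 0 and 0 CPM in the CD8 and 0, 41.0 and 26.04 CPM in the CD4 libraries of KO pools 1 to 3. Rpl7a-ps11 was at 10.4, 2.75 and 1.35 CPM in CD8 and 0, 0 and 0 CPM in CD4 libraries. Each gene was thus at 0 in every KO library of 1 co-receptor class. Reads of both can be shared with near-identical ribosomal protein genes, so these levels are uncertain.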
